A study of Mus musculus with 6 samples.

Results

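The integrin chains of the arterial wall that bind extracellular matrix were examined in whole aortic arches of mice with or without an endothelial deletion of Rbpj. The set was fixed by name as Itga1, Itga5, Itga7, Itga8, Itga9, Itgav, Itgb1, Itgb3 and Itgb5, and all 9 were among the 14298 genes listed. PolyA RNA was sequenced from 3 knockout and 3 control libraries. The knockout mice were ApoE-/-; RBPJ flox/flox; Cdh5-CreERT, in which a tamoxifen-activated recombinase is driven by the promoter of the endothelial cadherin gene. The control mice were ApoE-/-; RBPJ flox/flox without the recombinase, so the groups differ in the recombinase as well as in the deletion. All animals were adult C57/BL6 mice that lack apolipoprotein E, were given tamoxifen over 1 week when 8 weeks old, and then ate a high-fat diet over 6 weeks.

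Integrins are receptors of the cell surface made of an alpha and a beta chain, and the pairing sets which matrix proteins are bound. Inside the cell their tails are linked to actin through talin, kindlin and the complex of Ilk. In the arterial wall the beta1 chain pairs with many alpha chains on smooth muscle cells, among them the laminin receptor alpha7, the collagen receptor alpha1 and the nephronectin receptor alpha8, whereas alphav pairs with beta3 or beta5 to bind vitronectin and other proteins with an RGD motif. The question was how these chains stood in the wall when Rbpj, the DNA-binding partner of Notch, was deleted in the endothelium.

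Levels are CPM, read counts normalised by the authors to the scaled size of each library. They belong to whole tissue, where fewer cells of a type and less RNA per cell cannot be told apart. Library depth over the listed genes was 5904504 to 10072495 reads. Rbpj itself ranged from 169 to 212 CPM in the knockout and from 174 to 200.4 CPM in the control libraries, and this whole-tissue value does not check a deletion restricted to endothelium. The summed level of 10 thymocyte and T cell markers came to 23.7, 183 and 82.9 CPM in knockout S595, S598 and S599, against 28.4 to 36.8 CPM in the controls, so results are also given without S598 and S599. The labels do not say whether the libraries come from separate animals, so p-values measure the spread between these libraries.

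Itga8, Itga9, Itga1 and Itgb1 stood higher in the knockout arches without passing the adjusted threshold, and Itga5, Itga7, Itgav, Itgb3 and Itgb5 overlapped between the groups. Of the 9 chains, 4 (Itga8, Itga9, Itga1 and Itgb1) had every knockout value above every control value and 0 had every knockout value below, against 11.3% and 14.2% of all listed genes (25.5% in either direction). By limma with Benjamini-Hochberg adjustment over all listed genes 0 of the 9 passed the threshold of 0.05, where 0.021% of all listed genes did (3 genes, all higher). At an unadjusted p of 0.05, 3 chains were higher (Itga8, Itga9 and Itga1) and 0 lower, against 8.04% and 12.0% of all genes. The edgeR quasi-likelihood test and limma-voom on the recovered reads called 0 of the 9, and DESeq2 called Itga8 (adjusted p = 0.0223, higher), where it called 2.13% of genes higher and 4.56% lower. The median log2 fold change (knockout minus control, on log2(CPM + 1)) was 0.26 over the 9 chains and −0.018 over all genes.

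The 4 chains also had the groups apart, with 0 lower, after quantile normalisation (14.4% of all genes higher and 11.2% lower) and after scaling to the sum of the genes (13.8% and 10.3%). With 1 library left out they had the groups apart by construction, since groups that are apart stay apart when a library is removed. The counts of chains and the shares of all genes can then only stay or rise. The shares of all genes that were then higher and lower were 19.5% and 22.6% without knockout S595, and 13.4% and 16.2% without knockout S598. They were 20.8% and 22.5% without control S591, 15.8% and 19.1% without control S592, and 13.2% and 16.8% without control S594. Without knockout S599 Itga7 was apart as well, making 5 chains, beside 17.1% of all genes higher and 20.8% lower. With S595 as the single knockout, 6 chains were apart (Itga5 and Itga7 in addition), but so were 26.6% of all genes on the higher and 30.7% on the lower side.

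**Figure D1:**
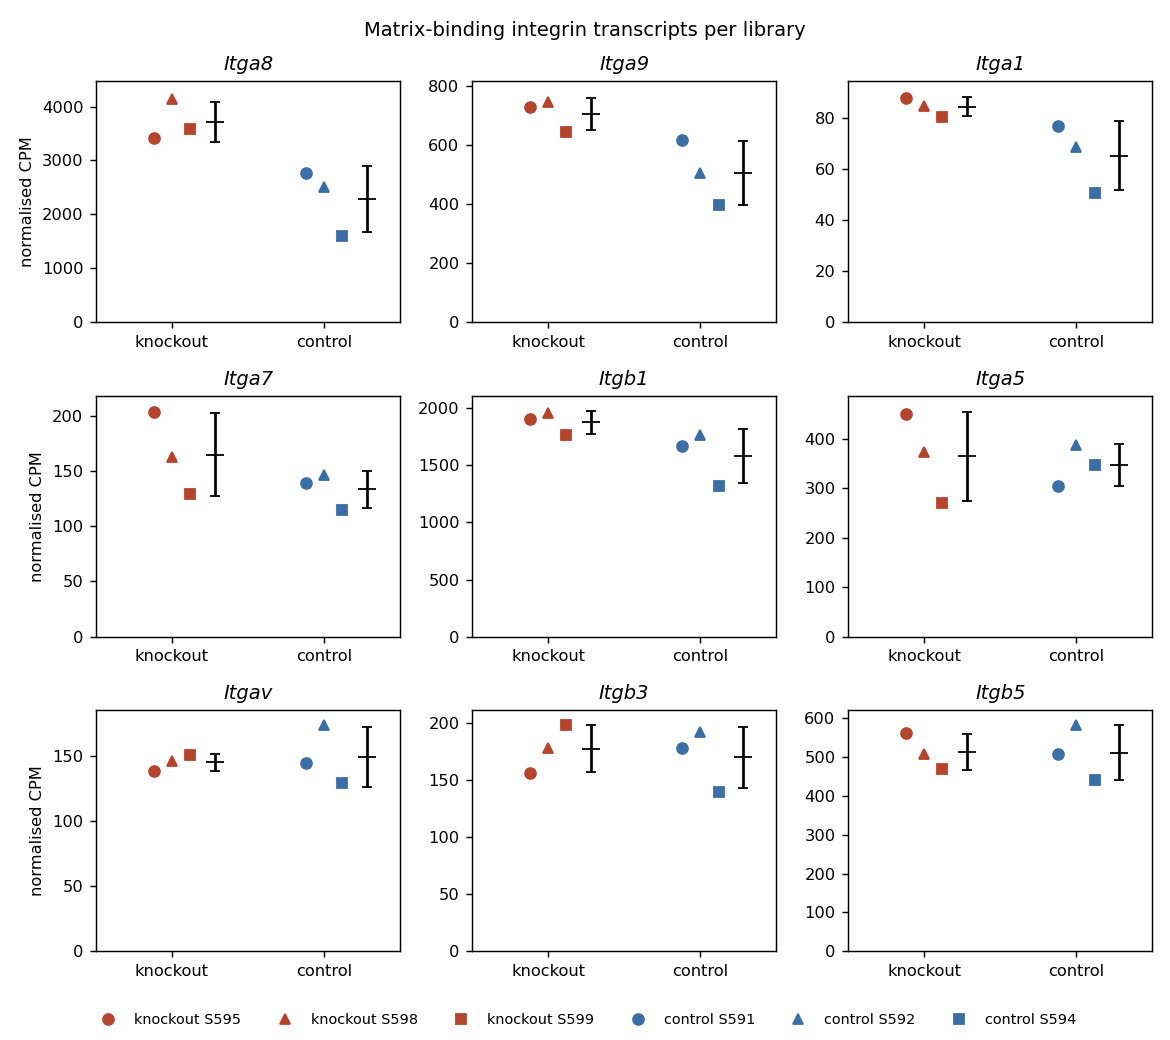
Normalised CPM of the 9 integrin chains in each library, with the 3 knockout libraries left and the 3 control libraries right in each panel, and the mean with SD (black). The y axes start at 0 and differ between panels, and the lowest knockout value of Itga8, 3426 CPM, lies above its highest control value, 2765 CPM.

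The promoters are shown for 2 chains whose groups were apart, Itga8 and Itga1, and for Itgav, whose groups overlapped, to give the sequence next to the start of each transcript. Each is the 250 bases before the RefSeq start in build GRCm38.p6, read 5′ to 3′ on the gene's strand, with CpG dinucleotides in capitals. The window of Itga8 lies at chr2:12301945-12302194 on the minus strand, that of Itga1 at chr13:115101965-115102214 on the minus strand and that of Itgav at chr2:83724147-83724396 on the plus strand.
Itga8: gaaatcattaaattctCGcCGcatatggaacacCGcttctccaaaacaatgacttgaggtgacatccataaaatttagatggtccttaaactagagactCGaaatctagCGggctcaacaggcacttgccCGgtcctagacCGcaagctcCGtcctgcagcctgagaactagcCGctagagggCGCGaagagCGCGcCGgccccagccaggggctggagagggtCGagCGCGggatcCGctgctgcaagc
Itga1: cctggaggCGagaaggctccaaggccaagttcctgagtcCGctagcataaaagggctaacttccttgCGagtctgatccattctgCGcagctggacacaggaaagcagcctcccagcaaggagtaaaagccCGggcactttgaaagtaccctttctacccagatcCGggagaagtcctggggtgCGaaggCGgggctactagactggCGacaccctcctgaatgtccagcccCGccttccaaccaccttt
Itgav: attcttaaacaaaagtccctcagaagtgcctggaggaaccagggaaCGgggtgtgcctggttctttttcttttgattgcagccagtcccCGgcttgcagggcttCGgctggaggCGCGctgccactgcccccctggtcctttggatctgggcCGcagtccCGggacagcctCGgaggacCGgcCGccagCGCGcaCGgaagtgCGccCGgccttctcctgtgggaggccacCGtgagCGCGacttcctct
The windows of Itga8 and Itgav each held 18 CpG dinucleotides and that of Itga1 held 10, with a GC content of 56.4%, 64.4% and 57.6% in that order. RefSeq windows were at hand for 7 of the 9 chains, and the window of Itga9 is not shown because it overlaps annotated untranslated bases. It lies at chr9:118711442-118711691, inside the gene that GENCODE M21 places at chr9:118606690-118901003, and it is counted among the 7. The letters TGGGAA, the core bound by the protein that Rbpj encodes, were searched on both strands and were found in 0 of the 7 windows, against 21.6% of 32851 windows of the same length. The CArG box, the motif of serum response factor, was found in 0 of the 7 windows as well, against 1.47%. No match says only that these letters are not in these windows.

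Itga8, the alpha8 chain that pairs with beta1 on smooth muscle and binds nephronectin, was the chain with the largest difference. It stood at 3426, 4135 and 3585 CPM in knockout S595, S598 and S599, against 2765, 2511 and 1598 CPM in control S591, S592 and S594. The groups did not overlap, and the lowest value belonged to control S594. The means were 3715 ± 372 CPM in the knockout and 2291 ± 613 CPM in the control arches (SD, n = 3 each), a 1.62-fold ratio of means. On the log2 scale the difference was 0.73 ± 0.27 (SE; limma adjusted p = 0.200), and its 95% interval ran from 1.07-fold to 2.57-fold. Itga8 was covered by 12903 to 42885 reads in each library. Without control S594 the log2 fold change was 0.49, and it was 0.62 with knockout S595 alone, whose spread was then taken from the controls. The gene E030013I19Rik lies on the opposite strand and has exons that overlap Itga8 in the GENCODE M21 annotation. It stood at 350, 331 and 251 CPM in knockout S595, S598 and S599 and at 202, 214 and 111 CPM in control S591, S592 and S594, and without a stated strand setting reads from the 2 genes cannot be told apart. This neighbour was named after its values were seen. Exons of genes that are not listed overlap other chains. These are Gm49395 for Itga1 on the same strand, and Mettl7b for Itga7 and Gm13684 for Itgav on the opposite strand.

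Itga9, the alpha9 chain that with beta1 binds tenascin-C, osteopontin and VCAM-1, stood at 729, 745 and 645 CPM in knockout S595, S598 and S599, against 616, 504 and 397 CPM in control S591, S592 and S594. The groups did not overlap, and knockout S599 and control S591 were the nearest libraries. The means were 706 ± 53.8 CPM in the knockout and 506 ± 109 CPM in the control arches (SD, n = 3 each), with a log2 fold change of 0.50 (95% interval 0.09 to 0.91, limma adjusted p = 0.180). This was the smallest adjusted p among the 9 chains. Without control S594 the log2 fold change was 0.34.

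Itga1, the alpha1 chain of a collagen receptor with a preference for collagen IV, stood at 87.9, 84.5 and 80.5 CPM in knockout S595, S598 and S599, against 76.7, 68.5 and 50.5 CPM in control S591, S592 and S594. The 3 knockout libraries lay close together (SD 3.72 CPM) and the controls were spread more widely (SD 13.4 CPM). The log2 fold change was 0.39 (95% interval 0.03 to 0.75, limma adjusted p = 0.225), or 0.21 without control S594. The exact two-sided permutation p was 0.1 for Itga8, Itga9, Itga1 and Itgb1 alike, which is the smallest that 3 against 3 libraries allow.

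Itgb1, the common beta1 partner of most chains in the set, was apart by the narrowest margin. It stood at 1905, 1956 and 1765 CPM in knockout S595, S598 and S599, against 1664, 1763 and 1317 CPM in control S591, S592 and S594. Knockout S599 and control S592 were almost level, and the interval of the log2 fold change, 0.26, included 0 (95% interval −0.17 to 0.69, limma adjusted p = 0.485). Without control S594 it was 0.13. Itga7, the laminin-binding alpha7 chain of muscle cells, stood at 203, 162 and 129 CPM in knockout S595, S598 and S599, against 139, 146 and 114 CPM in control S591, S592 and S594. Its groups overlapped with knockout S599 below 2 of the controls. The log2 fold change of 0.29 (95% interval −0.12 to 0.70, limma adjusted p = 0.406) was 0.45 without S599 and 0.12 without S595.

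Itga5, Itgav, Itgb3 and Itgb5 overlapped between the groups and had log2 fold changes near 0. Itga5, which with beta1 forms the main fibronectin receptor, stood at 451, 373 and 272 CPM in knockout S595, S598 and S599, against 306, 389 and 348 CPM in control S591, S592 and S594. The knockout libraries held both the highest and the lowest value, and the log2 fold change was 0.05 (limma adjusted p = 0.916) with a 95% interval of 0.756-fold to 1.41-fold. Itgav, the alphav chain, stood at 138, 146 and 151 CPM in knockout S595, S598 and S599, against 144, 174 and 129 CPM in control S591, S592 and S594. All knockout values lay inside the control range, and the 95% interval of the difference was 0.802-fold to 1.20-fold (log2 fold change −0.029, limma adjusted p = 0.920).

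Of the beta partners of alphav, Itgb3 stood at 157, 178 and 198 CPM in knockout S595, S598 and S599, against 178, 192 and 140 CPM in control S591, S592 and S594. Itgb3 also encodes the beta chain of the platelet fibrinogen receptor, whose alpha chain gene Itga2b averaged 3.79 CPM in the knockout and 5.99 CPM in the control arches. The interval for Itgb3 ran from 0.828-fold to 1.33-fold (log2 fold change 0.07, limma adjusted p = 0.827). Itgb5, the beta5 chain of a vitronectin receptor, stood at 561, 507 and 468 CPM in knockout S595, S598 and S599, against 507, 583 and 441 CPM in control S591, S592 and S594. Its interval ran from 0.800-fold to 1.27-fold (log2 fold change 0.0098, limma adjusted p = 0.977). These intervals bound the difference for Itga5, Itgav, Itgb3 and Itgb5 and do not show that the groups are equal.

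**Figure D2:**
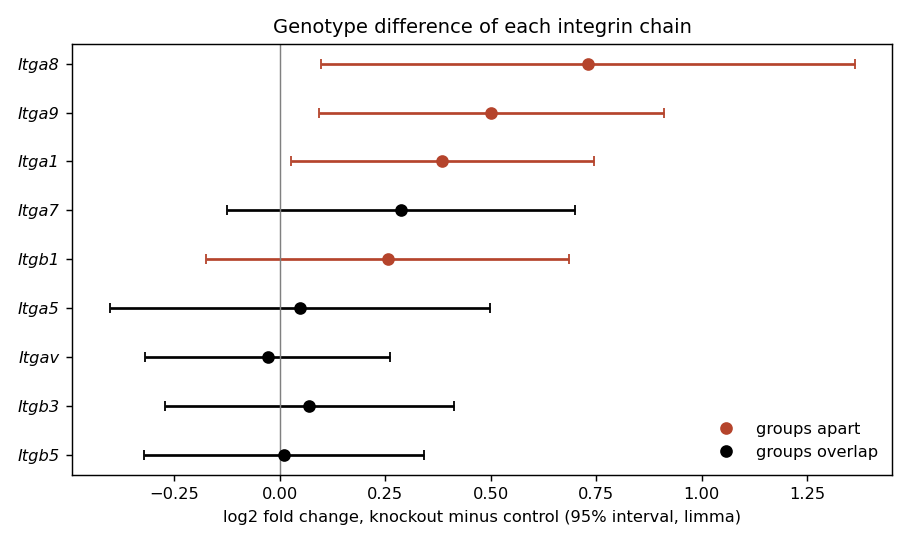
Log2 fold change of each integrin chain, knockout minus control, with its 95% interval from limma over all listed genes (points and bars). Chains with groups apart are red and chains with overlapping groups black, and the intervals of Itga8, Itga9 and Itga1 lie above 0 while 0 chains passed the adjusted threshold.

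Per length of transcript, Itga8 and Itgb1 were the most abundant chains and Itga1 the least. With the longest GENCODE M21 transcript as length, levels in CPM per kilobase over the 6 libraries ranged from 275 to 711 for Itga8, 345 to 513 for Itgb1, 134 to 178 for Itgb5, 56.6 to 106 for Itga9 and 61.5 to 102 for Itga5. They ranged from 28.4 to 50.6 for Itga7, 24.2 to 34.2 for Itgb3, 18.3 to 24.7 for Itgav and 4.603 to 8.01 for Itga1. Itga8 with Itgb1, Itga9 with Itga5, Itga7 with Itgb3 and Itgb3 with Itgav overlapped in range, so their order does not go beyond the spread. With the summed exons as length Itgb1 came before Itga8 and Itgb3 before Itga7, and that annotation is of another release than the counts.

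Ratios between chains of the same library do not depend on the 1 factor by which each library is scaled. Of the 9 ratios examined, Itga8 to Itgb1 was higher and Itgav to Itgb1 lower in every knockout library than in every control. These 2 of 9 are near the 25.5% of single genes with groups apart in either direction, so the count alone does not set these ratios apart. The share over other ratios was not computed. The ratio of Itga8 to Itgb1 in CPM was 1.798, 2.11 and 2.03 in knockout S595, S598 and S599, against 1.66, 1.42 and 1.21 in control S591, S592 and S594, a mean difference of 0.48 on the log2 scale. Every knockout library thus carried more Itga8 relative to Itgb1 than every control. The ratio of Itgav to Itgb1 was 0.0727, 0.0747 and 0.0855 in the knockout libraries and 0.0867, 0.0987 and 0.0979 in the control libraries, a mean log2 difference of −0.28. In both ratios control S591 stood closest to the knockouts.

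The ratios of Itga1, Itga5, Itga7 and Itga9 to Itgb1 overlapped between the groups. Itga9 to Itgb1 was 0.383, 0.381 and 0.365 in the knockout libraries and 0.370, 0.286 and 0.302 in the control libraries, so only control S591 reached the knockout values. The balance of the alphav partners, Itgb3 to Itgb5, was 0.279, 0.352 and 0.424 in the knockout libraries and 0.352, 0.329 and 0.317 in the control libraries. Its mean log2 difference was 0.06, and the knockout libraries spread on both sides of the controls. These ratios were described and not tested.

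**Figure D3:**
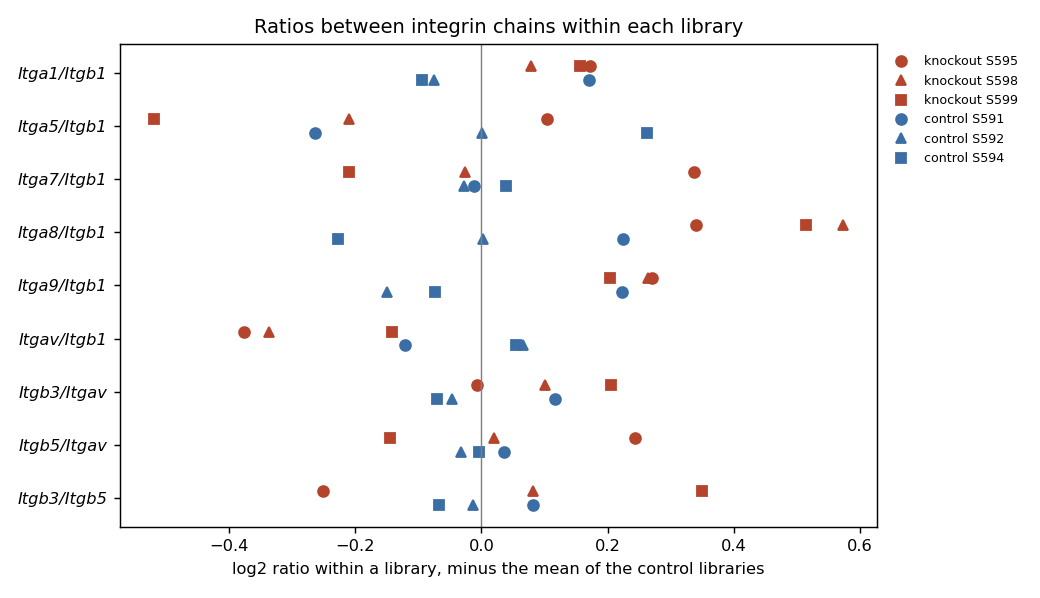
Log2 ratio of 2 integrin chains within a library, minus the mean of the control libraries, for each knockout (red) and control (blue) library, with symbols as in the legend. Itga8/Itgb1 lies higher and Itgav/Itgb1 lower in all 3 knockout libraries, and the other ratios overlap.

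Smooth muscle markers also stood higher in the knockout libraries. The summed level of all 12 smooth muscle markers (Myh11, Acta2, Tagln and others, none of them at 0) was 33744, 33660 and 25097 CPM in knockout S595, S598 and S599, against 24599, 20821 and 14151 CPM in control S591, S592 and S594. The sums did not overlap, with knockout S599 and control S591 nearest. All 12 markers had a positive log2 fold change. Taken singly, 6 had the groups apart with the knockout higher and 0 lower, against 11.3% and 14.2% of all genes, and 6 overlapped. By limma 0 passed (smallest adjusted p = 0.147). Per 1000 CPM of these markers, Itga8 stood at 102, 123 and 143 CPM in the knockout and at 112, 121 and 113 CPM in the control libraries, and its groups overlapped. On the same basis Itga9 stood at 21.6, 22.1 and 25.7 in the knockout libraries and 25.05, 24.2 and 28.1 in the control libraries.

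Relative to the smooth muscle markers, 0 of the 9 chains had the groups apart with the knockout higher, and Itgb5 alone had them apart with the knockout lower, where 0.322% and 45.2% of all genes did so. Itgb5 per 1000 CPM of markers stood at 16.6, 15.1 and 18.6 in the knockout libraries and at 20.6, 28.004 and 31.2 in the control libraries. By limma on this basis the log2 fold change was 0.07 for Itga8, −0.16 for Itga9 and −0.27 for Itga1, against −0.61 for Itga5, −0.69 for Itgav and −0.65 for Itgb5. The adjusted p over all genes was 0.0901 or more for each chain. This basis was chosen after the data were seen.

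Markers of other cell types also differed between libraries. The 12 macrophage markers summed to 3604.5, 2730.3 and 6623 CPM in the knockout and to 6505, 8718 and 10605 CPM in the control libraries. The 10 fibroblast markers summed to 11008, 8166 and 9499 CPM in the knockout and to 10826, 14162 and 14613 CPM in the control libraries. The macrophage sums overlapped through knockout S599 and control S591, and the fibroblast sums through knockout S595 and control S591. Of the fibroblast markers, 3 had a positive and 7 a negative log2 fold change. Taken singly, 1 had the groups apart with the knockout higher and 2 lower, against 11.3% and 14.2% of all genes. The sums of the 10 endothelial markers overlapped as well, at 890.4 to 1376 CPM in the knockout and 1096 to 1160.4 CPM in the control libraries. All members of these 3 lists were above 0 in every library, and their part in the integrin values was not tested.

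**Figure D4:**
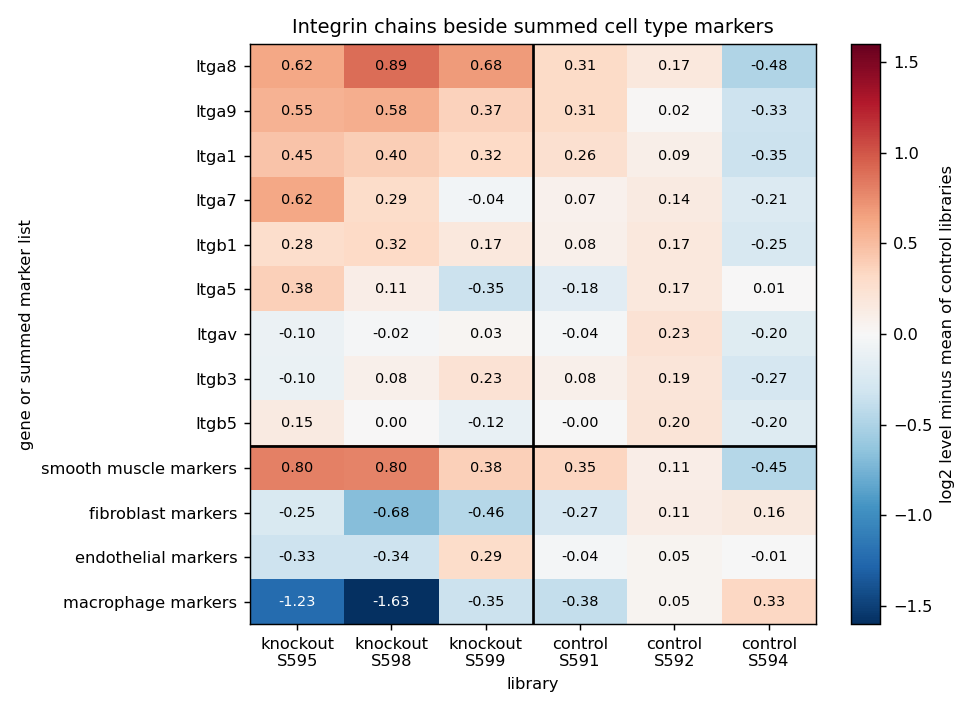
Log2 level of each integrin chain and of the summed markers of 4 cell types in each library, minus the mean of the control libraries (colour and printed value), knockout libraries left. Every chain except Itga5 is lowest in control S594, as are the smooth muscle markers, and the macrophage markers are highest there.

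The nearest patterns in the table were sought for each chain by the root mean square difference of log2(CPM + 1) deviations over the 6 libraries, among 11505 other named genes with a mean of at least 5 CPM. Itga8 was nearest Tmem252 (0.035) and Kcnma1 (0.048), which encodes a calcium-activated potassium channel of smooth muscle. Itga9 was nearest the alpha-actinin gene Actn1 (0.035) and Marveld1 (0.040), and Itga1 was nearest Mpdz (0.039) and Tprgl (0.040). Itgb1 was nearest Lhfp (0.020) and Lgalsl (0.028), and Itga7 was nearest the proteoglycan gene Cspg4 (0.064) and Wtip (0.065).

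Among the members themselves, Itga1 and Itga9 were each other's nearest chain (0.080), and so were Itgav and Itgb3 (0.098). Itga5 lay farthest from its nearest member, Itgb5 at 0.181, followed by Itga8, with Itga9 at 0.166. Outside the set, Itga5 was nearest Prpf3 (0.049) and Tax1bp3 (0.050), Itgav Zfp287 (0.025) and Lig4 (0.032), Itgb3 Taf9b (0.030) and AI597479 (0.031), and Itgb5 Htra1 (0.034) and Rnaseh2c (0.040). With 6 libraries many genes lie this near, and the distances describe these libraries alone.

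Among the other integrin chains, Itgam, Itgb2, Itgb7, Itga2b and Itga11 had every knockout value below every control value, and Itga3 had every knockout value above. Of 16 listed, 1 had the groups apart with the knockout higher and 5 lower, against 11.3% and 14.2% of all genes, with a median log2 fold change of −0.35. By limma 0 passed, and 2 were higher and 7 lower at an unadjusted p of 0.05, against 8.04% and 12.0% of all genes. DESeq2 called Itga3 higher and the leukocyte chains Itgam and Itgb2 lower, against 2.13% and 4.56% of genes, and edgeR and limma-voom called 0. Itga3, a laminin-binding partner of beta1, stood at 175 ± 23.6 CPM in the knockout and 122 ± 14.5 CPM in the control arches (limma adjusted p = 0.126). Itgb2, the beta chain of leukocyte integrins, stood at 113 ± 41.5 and Itgam, its myeloid alpha partner, at 49.8 ± 5.06 CPM in the knockout, against 280.03 ± 72.4 and 159 ± 63.2 CPM in the control arches (SD, n = 3 each). Itga11, a collagen receptor chain of fibroblasts, stood at 9.16 ± 2.66 CPM in the knockout and 17.7 ± 7.14 CPM in the control arches (limma adjusted p = 0.204). Itga3 and Itga11 bind matrix as well and went opposite ways, so the set of 9 does not stand for all matrix-binding chains. Itga6 and Itga10 overlapped between the groups, with log2 fold changes of −0.64 and 0.46. The summed macrophage markers given above overlapped between the groups through knockout S599 and control S591, with all 12 markers at a negative log2 fold change and a median of −1.10. Taken singly, 9 of the 12 had every knockout value below every control value and 0 above, against 14.2% and 11.3% of all genes. DESeq2 called 9 of them lower, against 4.56% of genes, and limma called 0. The part of these macrophage markers in Itgb2 and Itgam was not tested. Of the other leukocyte chains, Itgal, Itgax, Itga4, Itgad and Itgae overlapped between the groups, with log2 fold changes of −0.15, −0.83, −0.25, 0.18 and 0.37 in that order, and were named after their values were seen.

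Among the ligands, Npnt stood higher and Fn1 lower in the knockout arches. Npnt, which encodes nephronectin, stood at 1320.2, 1398 and 1039.9 CPM in knockout S595, S598 and S599, against 942, 831 and 557 CPM in control S591, S592 and S594, a log2 fold change of 0.71 (limma adjusted p = 0.158). Its groups did not overlap, as for Itga8. Fn1, the fibronectin gene, stood at 3021, 1817 and 2847 CPM in the knockout libraries, against 3972, 7999 and 5871 CPM in the control libraries, a log2 fold change of −1.19 (limma adjusted p = 0.141). Its groups were apart with the knockout lower, while its receptor chain Itga5 overlapped. The alpha9 ligand genes Spp1 and Vcam1 also had every knockout value below every control value, with log2 fold changes of −2.24 and −1.20 (limma adjusted p = 0.107 each), while Itga9 stood on the higher side. Tnc, the gene of the alpha9 ligand tenascin-C, overlapped at 160, 77.3 and 107 CPM in the knockout libraries and 143, 269.7 and 330.4 CPM in the control libraries, and was named after its values were seen.

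Of the 29 ligands listed, 3 had the groups apart with the knockout higher and 9 lower, against 11.3% and 14.2% of all genes, with a median log2 fold change of −0.22. The share higher is near that of all genes. By limma 0 passed, and 2 were higher and 12 lower at an unadjusted p of 0.05, against 8.04% and 12.0% of all genes. DESeq2 called 1 higher (Npnt) and 8 lower, against 2.13% and 4.56% of genes, and edgeR and limma-voom called 0. The laminin chain genes went both ways, with Lama2 at 0.51 and Lamb1 at −0.97 on the log2 scale (limma adjusted p = 0.144 and 0.121), and Lama5 at 0.20 with overlapping groups. Col4a1, of the collagen IV that alpha1 binds, stood at 1042 ± 118 CPM in the knockout and 1122 ± 83.3 CPM in the control arches (limma adjusted p = 0.732). Vtn, the vitronectin gene, was below 2 CPM in every library. The count of ligands with the knockout lower was 16 without knockout S595 and 14 without control S591, where 22.6% and 22.5% of all genes were apart in that direction. The count with the knockout higher was 8 without knockout S599, against 17.1% of all genes. With a library left out such counts can only stay or rise. After quantile normalisation 6 were higher and 9 lower, against 14.4% and 11.2% of all genes. After scaling to the sum of the genes 6 were higher and 7 lower, against 13.8% and 10.3%. Relative to the smooth muscle markers, 0 of the 29 ligands had the groups apart with the knockout higher and 20 lower, against 0.322% and 45.2% of all genes.

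Several adaptors that link integrins to actin stood higher in the knockout arches. Of the 29 listed, 13 had the groups apart with the knockout higher and 5 lower, against 11.3% and 14.2% of all genes, with a median log2 fold change of 0.22. The share lower is near that of all genes. By limma 0 passed, and 11 were higher and 4 lower at an unadjusted p of 0.05, against 8.04% and 12.0% of all genes. DESeq2 called 5 higher and 2 lower, against 2.13% and 4.56% of genes, and edgeR and limma-voom called 0. Relative to the smooth muscle markers, 0 of the 29 adaptors had the groups apart with the knockout higher and 10 lower. The shares of all genes on that basis were 0.322% and 45.2%. Lims2, the gene of a partner of Ilk, stood at 191 ± 34.7 CPM in the knockout and 119 ± 24.7 CPM in the control arches (SD, n = 3 each), a log2 fold change of 0.69. Ilk stood at 0.42 and Vcl, which encodes vinculin, at 0.38, both with groups apart (limma adjusted p = 0.156 and 0.296). Tns2 and Kank2, which encode focal adhesion proteins, stood at 0.50 and 0.46. Fermt3, the kindlin gene of blood cells, stood at 26.5 ± 3.90 CPM in the knockout and 54.8 ± 13.6 CPM in the control arches, a log2 fold change of −1.001 (limma adjusted p = 0.107). The talin gene Tln2 and the paxillin gene Pxn also had the groups apart with the knockout lower, at −0.52 and −0.29 (limma adjusted p = 0.128 and 0.241). Tln2 and Pxn were named after their values were seen. Fermt2, the kindlin gene of other cells, stood at 374 ± 36.0 CPM in the knockout and 291 ± 60.9 CPM in the control arches with overlapping groups (limma adjusted p = 0.270), as did Tln1 at 813 ± 89.4 and 757 ± 21.6 CPM (limma adjusted p = 0.729).

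**Figure D5:**
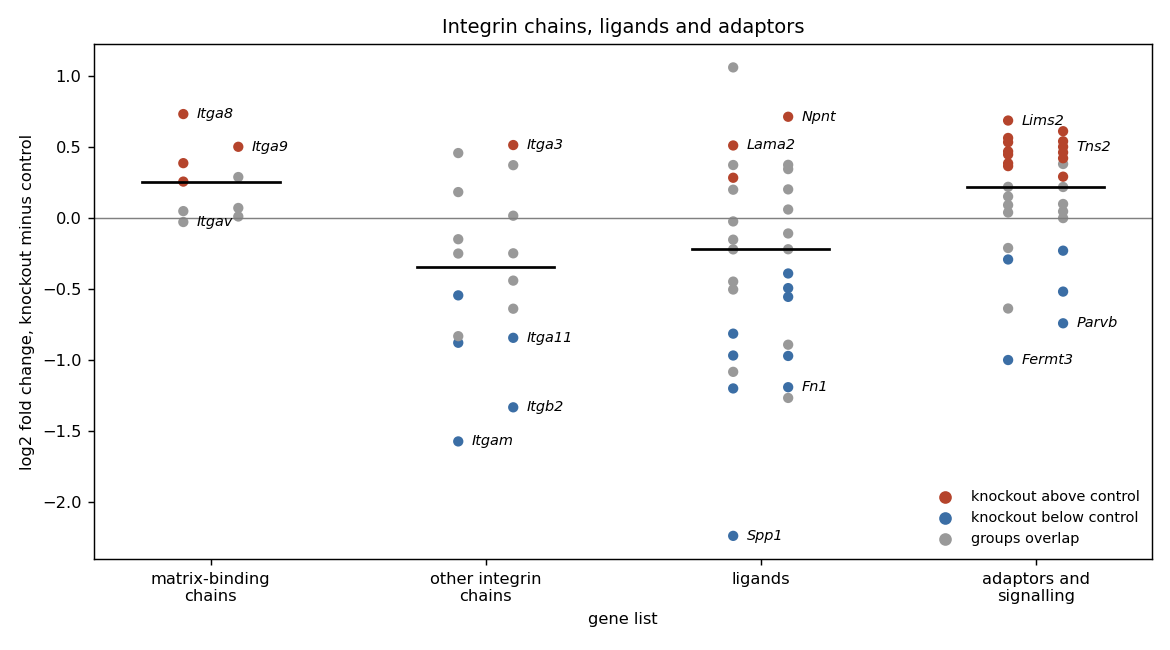
Log2 fold change, knockout minus control, of single genes (points), with the median of each list (black line). The lists are the 9 matrix-binding chains of the set, 16 other integrin chains, 29 ligands and 29 adaptor and signalling genes. The other chains include Itga3 and Itga11, which also bind matrix. Red and blue points have every knockout value above or below every control value, and the list medians are 0.26, −0.35, −0.22 and 0.22 from left to right.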

How the data were processed

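PolyA RNA of 3 knockout and 3 control aortic arches (RNA integrity number at least 7.9) was sequenced from TruSeq v2 libraries, per the labels' protocols. Per the submitters' processing notes, the tools were Bowtie 0.12.7, RSEM 1.16, cutadapt 1.6.1, CASAVA 1.8, edgeR and limma, with build NCBIM37. Filters and strandedness are not stated. Each deposited value is a normalised signal that the authors computed for 1 gene in 1 library. Checked on the values, it equals CPM of (reads + 0.5) with TMM factors from edgeR, within a relative deviation of 1.01e-09, and whole reads were recovered for 100% of values (tolerance 0.01). Every listed gene had at least 1.05 CPM in 3 or more libraries, and single values lie below that. Counting errors cover counting alone.

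Columns give group and library number (S591 to S599), not the sample. Symbols matched 13828 of 14298 Ensembl identifiers. The groups were compared with limma 3.58.1 (R 4.3.3) on the deposited values as log2(value + 1), with genotype as factor. A trend on intensity and Benjamini-Hochberg adjustment over 14298 genes were used. The fit was tested on simulated counts with larger changes than those of the chains, so its power for the chains was not measured. EdgeR 4.0.16, DESeq2 1.42.0 and limma-voom ran on recovered reads. The promoter sequences are from RefSeq (GRCm38.p6). Named besides the 9 chains were the genes of smallest p in 3 lists (8 other chains, 8 ligands and 6 adaptors at most), 9 fixed ligands and adaptors, and the 2 nearest patterns per chain. The members, lists and alternatives were chosen with earlier results of these data known.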

Additional observations from a re-analysis of the deposited data

How the results depend on the processing

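No paired analysis was possible because the columns carry no replicate numbers of the labels. Against 3 genes called over all listed genes, 0 were called with a pseudocount of 0.5 or 0.1, with a mean of at least 5 CPM, by edgeR, by limma-voom, and without knockout S598 and S599. There were 1 with no intensity trend, 10 at a threshold of 0.1, 900 by DESeq2, 1011 with array weights, 2960 relative to smooth muscle markers, and 0 to 671 with 1 library left out (671 without control S591, 6 without knockout S595). Of the 9 chains, 1 was called by DESeq2 and 0 under the other alternatives; the causes were not tested. The 4 chains with groups apart were the same 4 after either other scaling. With 1 library left out 4 or 5 were apart (Itga7 joined without knockout S599), and 6 with S595 as the 1 knockout library. Removing libraries cannot make groups that are apart overlap, so these counts could only stay or rise. Relative to smooth muscle markers 0 were apart on the higher side and 1 (Itgb5) on the lower.

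Apart from the smooth muscle basis, Itga8 (0.49 to 0.91), Itga9 (0.34 to 0.65), Itga1 (0.21 to 0.51), Itga7 (0.12 to 0.61) and Itgb1 (0.13 to 0.34) kept a positive log2 fold change under the 18 other alternatives. Dropping the intensity trend or filtering genes on level leaves a fold change as it is. For Itga8, Itga9, Itga1 and Itgb1, whose groups were apart, leaving out libraries cannot change the sign either. Chains near 0 changed sign. With 1 library left out the log2 fold change was −0.12 to 0.25 for Itga5, −0.13 to 0.087 for Itgav, −0.064 to 0.16 for Itgb3 and −0.091 to 0.11 for Itgb5. With array weights it was −0.025 for Itga5 and −0.065 for Itgb5, with scaling to the sum of the genes 0.0053 for Itgav, and without S598 and S599 −0.10 for Itgb3. Relative to smooth muscle markers it was −0.27 for Itga1, −0.61 for Itga5, −0.37 for Itga7, −0.16 for Itga9, −0.40 for Itgb1, −0.59 for Itgb3 and −0.65 for Itgb5. Each chain had at least 407 reads in every library.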

Other observations

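Transcripts of nerve sheath, fat, platelets and striated muscle, were also summed. The 6 listed Schwann cell markers of 7 stood at 217 to 248 CPM in the knockout and 209 to 229 CPM in the control libraries. The 7 adipocyte markers stood at 410 to 711 CPM in the knockout and 308 to 1534 CPM in the control libraries, with the highest sum in control S591. The 4 listed platelet markers of 8 summed to 19.6 to 21.6 CPM in the knockout and 25.1 to 33.4 CPM in the control libraries, and the sums were apart. Taken singly, 2 of the 4 had a positive and 2 a negative log2 fold change. Groups were apart with the knockout lower for 2, among them Itga2b, and higher for 0, against 14.2% and 11.3% of all genes. Itgb3, which platelets share, overlapped between the same libraries, and the part of platelets in its values was not tested. The 4 listed striated muscle markers of 12 stood at 19.98 to 41.2 CPM in the knockout and 10.5 to 60.8 CPM in the control libraries, with the highest sum in control S591, and Ckm and Acta1 were among those that are not listed. Itga7, the chain of muscle cells, stood at 139 CPM in control S591 and 203 CPM in knockout S595.

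Several integrin chains of low level lay near the detection range. Itgae stood at 1.75 to 2.75 CPM in the knockout and 1.053 to 1.87 CPM in the control libraries, and Itgad at 1.14 to 6.84 CPM in the knockout and 0.201 to 5.26 CPM in the control libraries, the lowest of these being 1 read. Both were named after their values were seen.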
